A study of Mus musculus with 10 samples.

Results

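The genes described here are 40 genes of the lysosome, chosen by symbol from a table of 18493 genes measured in mouse oocytes. They comprise 12 cathepsins and other peptidases, 5 lysosomal membrane proteins, 8 genes of cholesterol, lipid and glycogen handling, 4 sulfatases, the transcription factors Tfeb and Tfe3, 3 subunits of the V0 sector and 6 of the V1 sector of the vacuolar proton pump (V-ATPase). Of the 40, 32 carry a Gene Ontology term for the lysosome in the authors' deposited table, as do 440 (2.38%) of all its genes. The 8 without one are Tfe3, Atp6v0a1 and the 6 V1 subunits.

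Polyadenylated RNA of oocytes from the ovary was copied into full-length cDNA by the SMART-seq2 method, amplified and sequenced. There were 3 groups: young (n = 3 libraries), labelled as control, aged (n = 3), labelled as treatment, and spermidine (n = 4), labelled as a rescue. Spermidine, a polyamine made by most cells, was the agent given, and the series asks how it changes transcript levels in oocytes of aged females. The labels used here give no strain, age, dose or route, do not say whether the spermidine oocytes came from animals as old as the aged group, and do not say whether libraries came from separate animals. The p-values therefore measure the spread between these libraries, which may be technical.

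Lysosomes are acidic organelles in which proteases, lipases, glycosidases and sulfatases break down material delivered by endocytosis and autophagy. The V-ATPase acidifies them: its V1 sector hydrolyses ATP in the cytosol and turns the membrane-embedded V0 sector, which carries the protons. TFEB and TFE3 are related transcription factors that bind an E-box, the palindrome CACGTG, in promoters of many lysosomal genes, where the longer palindrome TCACGTGA forms the core of the element named CLEAR. Autophagy ends in the lysosome, and spermidine is known as an inducer of autophagy.

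Promoter sequences show which of the 40 genes hold that letter pattern next to their start. RefSeq promoters on the assembly GRCm38.p6, running from 250 bases before to 50 bases after the start of transcription, were found for 32 of the 40 genes. Because both motifs are palindromes, a match on one strand is a match on the other, and every match to the 8-base motif is also a match to the 6-base one. CACGTG was present in 11 of the 32 genes (34.4%), against 8.09% of 27025 genes and 7.15% of 32851 promoters of the same length in the table. TCACGTGA was present in 5 of the 32 (15.6%), namely Ctsa, Ctsd, Mcoln1, Atp6v0d1 and Atp6v1a, against 1.12% of genes and 0.974% of promoters. A match describes the letters of these windows and shows no binding. The stretches below are shown because they carry the matches of genes described later, with CACGTG in capitals, read 5′ to 3′ on the strand of the gene.
Lamp1, chr8:13159061-13159160, plus strand: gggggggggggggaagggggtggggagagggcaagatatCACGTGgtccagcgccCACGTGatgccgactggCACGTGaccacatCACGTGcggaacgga
Gaa, chr11:119267773-119267872, plus strand: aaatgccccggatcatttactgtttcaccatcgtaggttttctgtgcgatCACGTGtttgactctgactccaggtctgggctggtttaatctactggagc
Ctsd, chr7:142387878-142387977, minus strand: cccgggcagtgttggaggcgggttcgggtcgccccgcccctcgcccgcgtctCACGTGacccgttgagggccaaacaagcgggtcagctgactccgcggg
Ctsa, chr2:164833758-164833787, plus strand: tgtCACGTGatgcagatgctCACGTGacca
Mcoln1, chr8:3500462-3500491, plus strand: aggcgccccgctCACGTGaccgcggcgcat
Lgmn, chr12:102439124-102439153, minus strand: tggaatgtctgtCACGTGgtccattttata
Atp6v0d1, chr8:105566050-105566079, minus strand: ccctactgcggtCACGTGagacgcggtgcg
Atp6v1a, chr16:44139373-44139402, minus strand: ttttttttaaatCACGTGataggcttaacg

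Lamp1 held 4 copies within its stretch and Ctsa held 2 copies of the 8-base form, one on each side of the start. Of the 8 genes that passed a test in the comparisons below, Gaa and Ctsd held CACGTG. Scarb2, Tfe3, Atp6v0c, Psap and Arsb had promoter entries without it, and Npc1 had no entry.

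**Figure D1:**
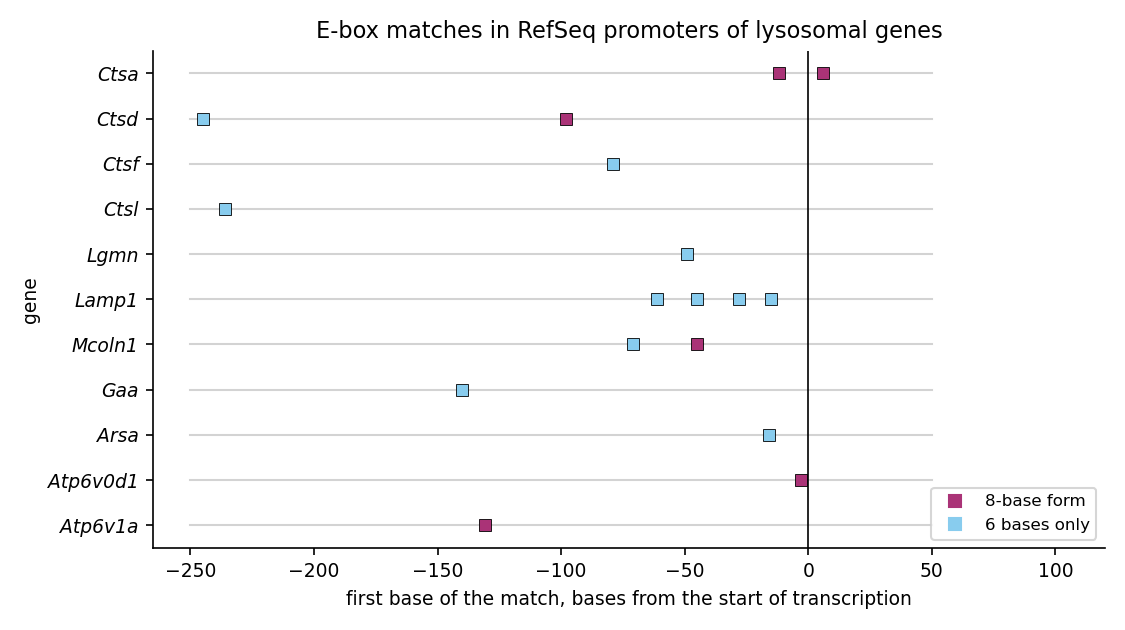
Position of each E-box match in the 11 lysosomal genes that hold one, as the distance in bases of the first base of the match from the start of transcription (vertical line), with the grey line marking the window searched. Dark squares are the 8-base form and light squares the 6 bases alone: Lamp1 holds 4 matches within 61 bases before its start, and the 8-base match of Ctsd lies 98 bases before its start.

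Library totals lay between 24222185 and 28730790 counts, and a floor of 3 counts was worth 0.0902 to 0.138 CPM, counts scaled by library size in a library. Oocyte markers summed to between 23298.6 and 38741.9 CPM in every library, and granulosa and cumulus markers to between 19.2 and 27.1 CPM, of which Cyp19a1 took 8.81 to 16.7 CPM. Of the 9 oocyte markers 2 rose with age and 0 fell, where 9.71% of all tested genes were called higher and 8.06% lower. They were Ddx4 (log2 fold change 1.57, SE 0.25, edgeR adjusted p = 0.00235) and Nlrp5 (1.03, SE 0.29, edgeR adjusted p = 0.0318). Ddx4 alone fell with spermidine against aged oocytes (-1.13, SE 0.23, edgeR adjusted p = 0.0221), where 2.44% of all tested genes did. Of 5 tested granulosa markers Fshr (1.79, SE 0.41, edgeR adjusted p = 0.0125) and Nr5a2 (0.61, SE 0.20, edgeR adjusted p = 0.0481) rose with age. The markers did not move as 1: values for age were above 0 in 3 of the 5 and below 0 in 2. By edgeR 4 of the 5 had an unadjusted p under 0.05, as did 34.7% of all tested genes. The 2 called higher with age are 40% of the 5, beside 9.71% of all tested genes. Nr5a2 was also higher in spermidine than in young oocytes (0.78, SE 0.19, edgeR adjusted p = 0.0297). The part of granulosa cells in the increases of lysosomal genes was not tested. Macrophage and blood markers summed to 40.2, 25.2 and 25.4 CPM in young 1, young 3 and aged 1 and to between 8.93 and 17.7 CPM in the other 7 libraries. C1qb alone was at 8.72 to 20.5 CPM in all 10 libraries. Without it, a choice made after its values were seen, the sums were 19.7, 10.7 and 8.98 CPM in those 3 and 0.211 to 0.445 CPM in the other 7. The libraries also differed in trends over all genes that follow transcript length and GC content. Deviations from the mean of all libraries correlated, across genes, with length at 0.475 in aged 1 and 0.196 in spermidine 1, against -0.268 to 0.0393 in the others. They correlated with GC content at 0.287 in aged 2, 0.411 in aged 3, 0.232 in spermidine 4 and 0.142 in young 2, and at -0.329 to -0.0832 in the other 6. Genes are not independent replicates, so these are descriptions of the libraries.

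Per kilobase of transcript, over all 10 libraries, the 40 genes spanned a wide range of levels. The V0 subunit gene Atp6v0c was the highest at 258 CPM per kilobase, followed by Atp6v1e1 at 216, the aminopeptidase gene Ctsh at 88.9 and Lamp1 at 84.5. Among genes of enzymes and proteins of the lysosomal lumen, Lgmn stood at 39.8, Npc2 at 19.0, Smpd1 at 12.9 and Ctsd at 8.93 CPM per kilobase. Scarb2, at 0.368 CPM per kilobase, and Ids, at 0.211, were among the lowest of those tested. The 7 genes too low to be tested were Ctsc, Ctsf, Ctsk, Ctsz, Lipa, Arsa and Tfeb, between 0.00127 and 0.151 CPM per kilobase. Tfeb had 3, 0 and 2 counts summed over the young, aged and spermidine groups, and Arsa had 1, 0 and 0, so of the 2 transcription factor genes Tfe3 alone had enough counts for a test.

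Of the 33 genes tested, 5 rose with age and 0 fell: Npc1, Gaa, Scarb2, Ctsd and Tfe3. That is 15.2% of the genes tested, where 9.71% of all 12315 tested genes were called higher, 8.06% lower and 17.8% in either direction in aged oocytes, so the share called in either direction was not above the background. The median log2 fold change was 0.38 over the 33 genes and 0.10 over all tested genes. Values for aged oocytes lay wholly above those for young ones in 12 of the 33 genes (21.1% of all genes) and wholly below them in 1, Atp6v1d (18.8% of all genes). With spermidine against aged oocytes 0 rose and 4 fell, namely Psap, Arsb, Tfe3 and Atp6v0c, where 2.42% of all genes were called higher, 2.44% lower and 4.86% in either direction, and the medians were -0.14 and -0.03. Spermidine libraries lay wholly above aged ones in 1 gene, Atp6v1h (11.4% of all genes), and wholly below in 5, Npc1, Psap, Arsb, Tfe3 and Atp6v0a1 (8.49% of all genes). With spermidine against young oocytes 1 gene, Scarb2, was higher and 0 lower, where 3.44% of all genes were called higher, 1.92% lower and 5.36% in either direction. They lay wholly above the young libraries in 5 genes, Lamp2, Scarb2, Npc1, Gaa and Atp6v1h (12.1% of all genes), and wholly below in 0 (8.92% of all genes). The comparisons share libraries, so their values are not independent of each other. Each p comes from the quasi-likelihood test of edgeR, adjusted by Benjamini and Hochberg over all tested genes at a threshold of 0.05, and 12, 8 and 7 of the 33 genes had an unadjusted p under 0.05 in the 3 comparisons. Those are 36.4%, 24.2% and 21.2% of the 33, close to the 34.7%, 24.2% and 19.98% of all tested genes. Without young replicate 1 the count of genes higher with age was 1, and without aged replicate 2 the count lower with spermidine was 0. That count was also 0 with total count scaling and with only the aged and spermidine groups in the fit.

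**Figure D2:**
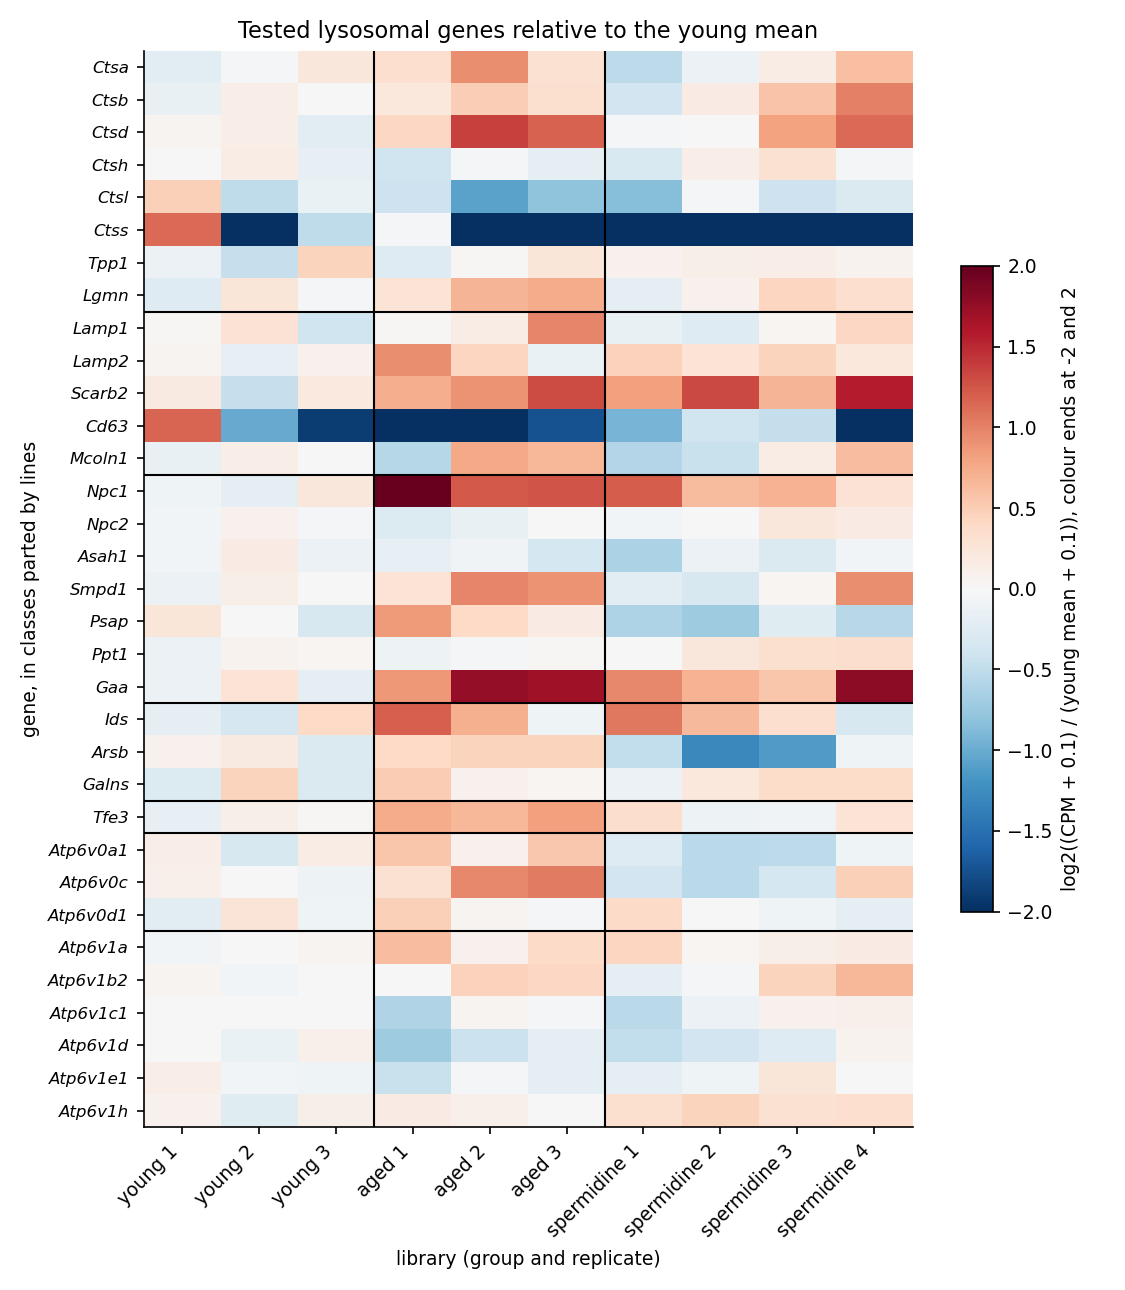
Level of each of the 33 tested lysosomal genes (rows, in classes parted by lines) in each library (columns), as log2 of CPM plus 0.1 over the young mean plus 0.1, with red above and blue below the young mean. Gaa, Npc1 and Scarb2 are red in all aged and spermidine libraries, and Ctss is above the young mean in young 1 alone and darkest blue in the 7 libraries other than young 1, young 3 and aged 1.

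Genes of cholesterol, lipid and glycogen handling included those with the largest increases with age. Npc1 (Gene ID 18145) encodes the membrane protein that exports cholesterol from the lysosome. It stood at 16.3, 15.2 and 20.3 CPM in the young libraries, 73.6, 40.6 and 41.6 CPM in the aged and 40.1, 26.9, 28.0 and 21.1 CPM in the spermidine libraries. The 3 groups did not overlap, with the spermidine libraries between the others, and aged 1 and spermidine 1 were the highest of their groups. Aged oocytes were 3.01-fold above young ones (log2 fold change 1.59, SE 0.27, edgeR adjusted p = 0.00342), and this call was kept in all 10 fits that leave out a library (1.21 to 1.74). Spermidine against aged oocytes gave a log2 fold change of -0.84 (SE 0.25, edgeR adjusted p = 0.0685), and spermidine against young oocytes 0.75 (SE 0.26, edgeR adjusted p = 0.121). With length and GC correction the value against aged oocytes was -0.71 and passed (edgeR adjusted p = 0.0464). Npc1 overlaps Rmc1 on the opposite strand by 192 exonic bases. No source used here says whether counting used strand, so reads of the overlap cannot be told apart. Npc2, which hands cholesterol to NPC1 in the lumen, stood at 62.9 CPM ± 3.56 (SD, n = 3), 57.2 CPM ± 5.54 (SD, n = 3) and 67.0 CPM ± 6.28 (SD, n = 4) in the young, aged and spermidine groups, and its value for age was -0.14 (95% interval -0.40 to 0.13).

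Gaa (Gene ID 14387), which encodes the acid glucosidase that digests glycogen in lysosomes, stood at 2.58, 3.41 and 2.45 CPM in young, 5.24, 9.74 and 9.36 CPM in aged and 5.59, 4.60, 4.17 and 9.93 CPM in spermidine libraries. All 7 aged and spermidine libraries lay above the young ones, and spermidine 4 matched the highest aged libraries. The increase with age was 2.87-fold (log2 fold change 1.52, SE 0.35, edgeR adjusted p = 0.0125). It was lost without young replicate 1 or young replicate 3, with values of 1.37 to 1.71 over the left-out fits. Spermidine against young oocytes gave 1.10 (SE 0.33, edgeR adjusted p = 0.0755), which passed with length and GC correction (0.94, edgeR adjusted p = 0.0285). The transcript has a GC content of 59.5%, against a median of 49.3% for tested genes, and the 3 highest libraries, aged 2, aged 3 and spermidine 4, are those whose deviations follow GC content most positively. With the correction the increase with age was 1.05 (edgeR adjusted p = 0.0134).

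Psap (Gene ID 19156) encodes prosaposin, the precursor of the saposins that present sphingolipids to lysosomal hydrolases. It stood at 2.21, 1.87 and 1.47 CPM in young, 3.4, 2.46 and 2.09 CPM in aged and 1.17, 1.09, 1.54 and 1.23 CPM in spermidine libraries. Every spermidine library lay below every aged one, while the young libraries overlapped both groups. Psap fell with spermidine to 0.473 of its aged level (log2 fold change -1.08, SE 0.24, edgeR adjusted p = 0.0297). The call was lost without aged replicate 1 or 2 or without spermidine replicate 1, 2 or 3, with values of -1.23 to -0.86 over the left-out fits, and with length and GC correction (-0.96, edgeR adjusted p = 0.0563). The value for age was 0.52 (SE 0.25, edgeR adjusted p = 0.163). Smpd1, which encodes acid sphingomyelinase, did not pass and stood at 22.7, 26.7 and 24.8 CPM in young, 29.9, 48.5 and 46.1 CPM in aged and 21.1, 19.9, 25.4 and 47.0 CPM in spermidine libraries. As in Gaa, aged 2, aged 3 and spermidine 4 were the highest, and the transcript has a GC content of 55.7%. Its value for age was 0.75 (SE 0.30, edgeR adjusted p = 0.1), and it has a q-value under 0.05 in the authors' deposited table. The acid ceramidase gene Asah1 and the thioesterase gene Ppt1 had values for age of -0.20 and -0.03 and did not pass. Of the 7 tested genes of this class 2 rose with age (28.6%), 0 fell and 5 did not pass, with a median of 0.52. Of all tested genes 9.71% were called higher with age and 8.06% lower, with a median of 0.10.

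**Figure D3:**
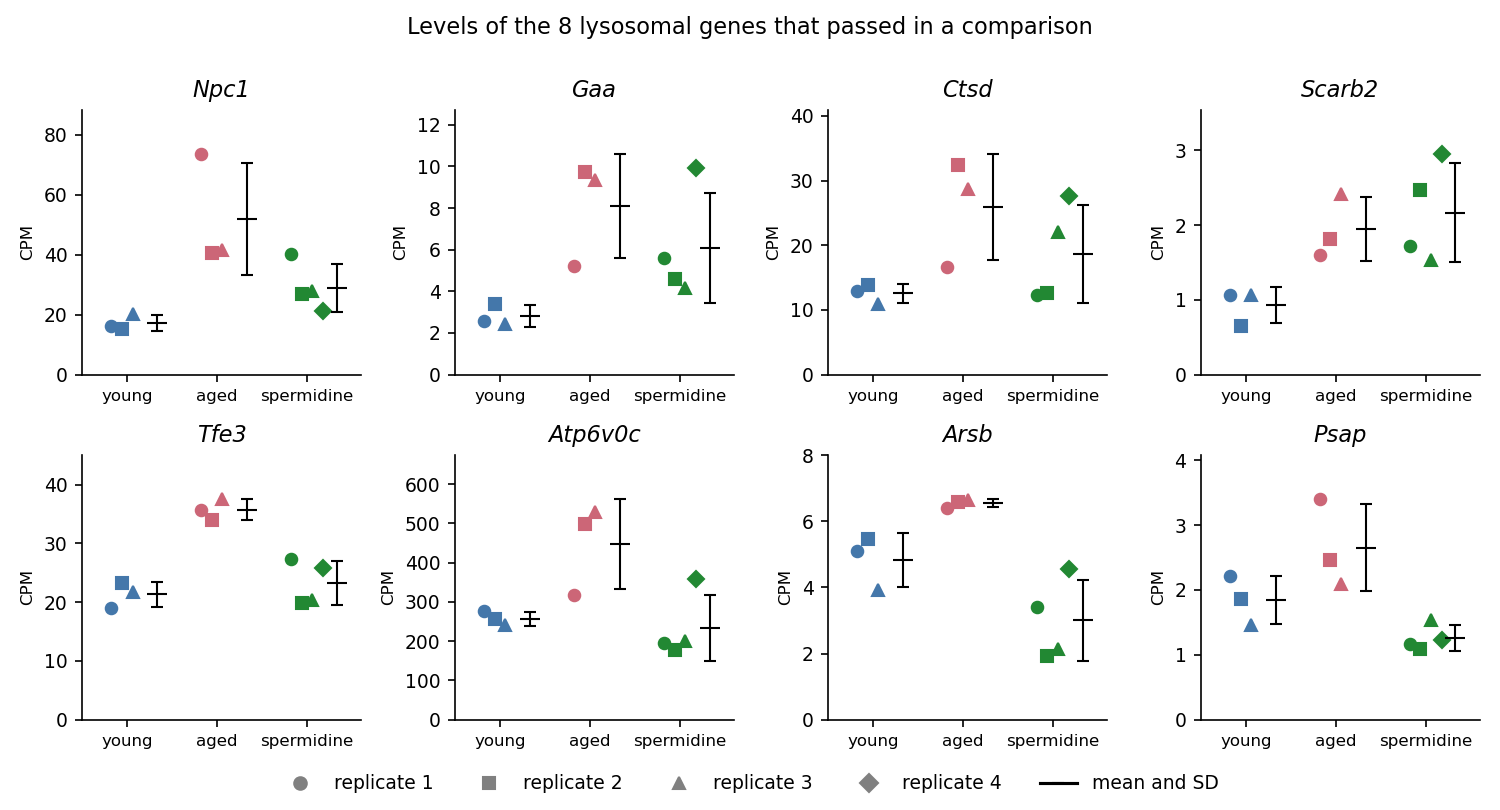
CPM in each library of the 8 lysosomal genes that passed the test in at least 1 comparison, with replicates by symbol and the mean ± SD of each group as a bar at its right. Young and aged libraries do not overlap in any of the 8 panels but that of Psap, and aged and spermidine libraries do not overlap for Npc1, Tfe3, Arsb and Psap.

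Among the 5 membrane proteins, Scarb2 alone passed. Scarb2 (Gene ID 12492), which encodes LIMP-2, the receptor that carries glucocerebrosidase to lysosomes, stood at 1.06, 0.646 and 1.07 CPM in young, 1.60, 1.82 and 2.42 CPM in aged and 1.71, 2.47, 1.54 and 2.95 CPM in spermidine libraries. Aged and spermidine libraries overlapped each other and lay wholly above the young ones. Aged oocytes were 2.12-fold above young ones (log2 fold change 1.08, SE 0.32, edgeR adjusted p = 0.0375) and spermidine oocytes 2.36-fold above young ones (1.24, SE 0.31, edgeR adjusted p = 0.0364). Spermidine against aged oocytes gave 0.15 (95% interval -0.40 to 0.70). The call for age was lost without any 1 of the young libraries, aged replicate 2 or 3 or spermidine replicate 2 (0.87 to 1.17 over the left-out fits). With length and GC correction it was 1.02 (edgeR adjusted p = 0.0675). The call for spermidine against young was lost without any 1 of the young libraries, aged replicate 2 or spermidine replicate 2 or 4 (1.02 to 1.37).

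Lamp1, which encodes the most familiar of the heavily glycosylated proteins that line the lysosomal membrane and whose promoter holds the 4 E-boxes shown above, stood at 171, 206 and 128 CPM in young, 172, 187 and 330 CPM in aged and 152, 141, 172 and 224 CPM in spermidine libraries. The groups overlapped, and aged 3 was the highest library. Its value for age was 0.45 (SE 0.26, edgeR adjusted p = 0.241). Lamp1 overlaps Grtp1 on the opposite strand by 177 exonic bases. Lamp2, whose protein takes part in chaperone-mediated autophagy, gave 0.48 (SE 0.24, edgeR adjusted p = 0.179). Mcoln1, the gene of the calcium channel mucolipin 1, gave 0.40 (SE 0.36, edgeR adjusted p = 0.439) and was again highest in aged 2, aged 3 and spermidine 4. The tetraspanin gene Cd63 stood at 1.47 CPM in young 1 and at 0.435 CPM or less in the other libraries, and its reads can be shared with the pseudogene Cd63-ps.

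Of the 12 peptidases, 8 were tested and 1 passed. Ctsd (Gene ID 13033), which encodes the aspartic protease cathepsin D, stood at 13.0, 13.8 and 10.9 CPM in young, 16.7, 32.4 and 28.6 CPM in aged and 12.3, 12.6, 22.0 and 27.7 CPM in spermidine libraries. The young and aged libraries did not overlap, and the spermidine libraries fell into a pair at the young level and a pair at the level of the aged. Ctsd rose 2.06-fold with age (log2 fold change 1.05, SE 0.32, edgeR adjusted p = 0.043). The call was lost without any 1 of the young libraries, without aged replicate 2 or 3 or without spermidine replicate 3 (0.85 to 1.24 over the left-out fits). The transcript has a GC content of 55.9%, and with length and GC correction the value was 0.91 (edgeR adjusted p = 0.0172). Ctsd overlaps the unlisted gene model Gm49369 on its own strand by 227 exonic bases. Spermidine against aged oocytes gave -0.48 (SE 0.30, edgeR adjusted p = 0.349) and spermidine against young oocytes 0.57 (SE 0.30, edgeR adjusted p = 0.326).

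The other tested cathepsins moved both ways with age and did not pass. Ctsb, the gene of the abundant cysteine protease cathepsin B, gave a value for age of 0.35 (95% interval -0.19 to 0.88), with 22.4, 32.7, 43.7 and 58.9 CPM in the 4 spermidine libraries, which spanned the range of both other groups. Ctsa, which encodes the carboxypeptidase that also protects lysosomal sialidase and galactosidase, gave 0.56 (95% interval -0.01 to 1.14), and Tpp1, the gene of a tripeptidyl peptidase, 0.02 (95% interval -0.47 to 0.51). Ctsh, the peptidase gene of the highest level per kilobase, gave -0.20 (95% interval -0.53 to 0.14), and Ctsl, a cathepsin gene of the papain family, -0.74 (SE 0.28, edgeR adjusted p = 0.0867). Lgmn encodes legumain, which cleaves after asparagine and processes cathepsins. It stood at 55.1, 77.5 and 64.9 CPM in young and 79.3, 106 and 110 CPM in aged libraries, which did not overlap, and gave 0.58 (SE 0.20, edgeR adjusted p = 0.0579). In the class as a whole 5 of the 8 tested values for age were above 0 and 3 below, with a median of 0.18. Over all 12315 tested genes 6898 were above 0, with a median of 0.10. Aged libraries lay wholly above young ones in 4 of the 8, Ctsa, Ctsb, Ctsd and Lgmn (21.1% of all genes). They lay wholly below in 0 (18.8% of all genes).

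Ctss, the gene of cathepsin S, a protease of antigen-presenting cells, followed the blood transcripts rather than the groups. Its counts were 47, 0 and 14 in young, 27, 0 and 0 in aged and 1, 0, 0 and 0 in spermidine libraries. The 3 libraries above the floor were young 1, young 3 and aged 1, in which the 3 haemoglobin genes summed to 12.9, 8.89 and 6.34 CPM, against at most 0.109 CPM in the other 7. Lyz2, a lysozyme gene of macrophages, stood at 1.34, 0.667 and 0.934 CPM in those 3 and at or below 0.0602 CPM elsewhere. In spermidine against young oocytes Ctss did not pass (edgeR adjusted p = 0.0793). In libraries of bulk RNA fewer cells of a type and less RNA per cell cannot be told apart. The part of blood cells in the levels of the other genes was not tested.

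**Figure D4:**
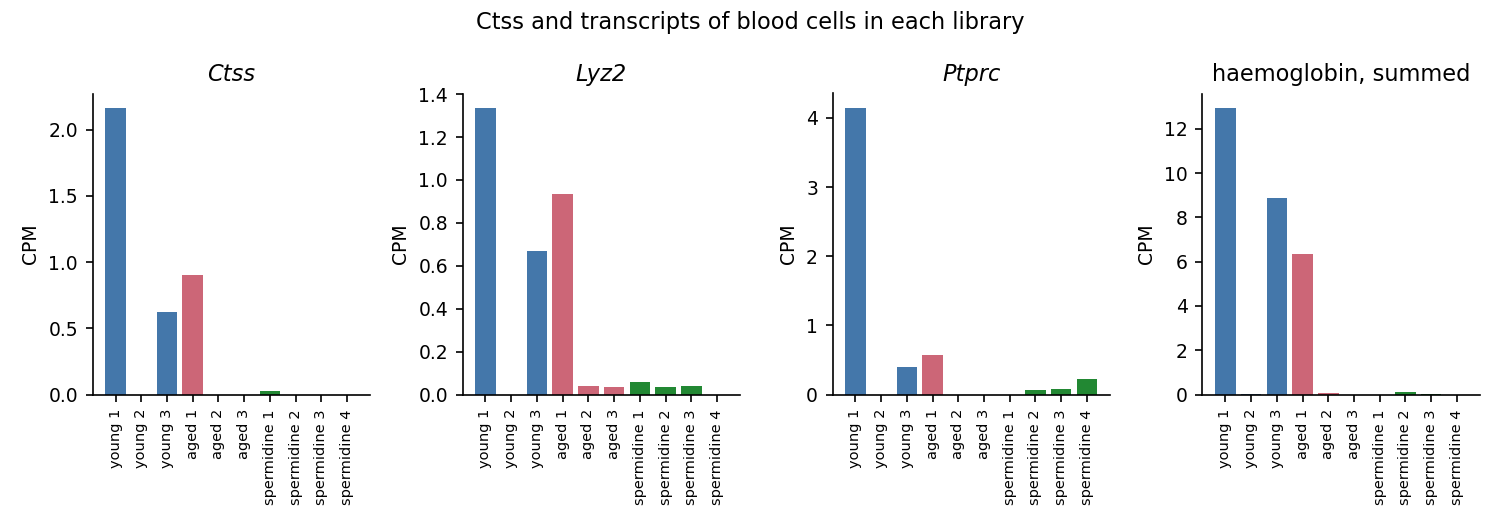
CPM in each of the 10 libraries of Ctss, of the leukocyte genes Lyz2 and Ptprc and of the 3 haemoglobin genes summed, 1 bar per library and none with an error bar. Young 1, young 3 and aged 1 are the libraries with Ctss above 0.5 CPM and with haemoglobin above 6 CPM.

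Of the 4 sulfatase genes, 3 were tested. Arsb (Gene ID 11881) encodes arylsulfatase B, which removes sulfate from dermatan and chondroitin sulfate. It stood at 5.11, 5.46 and 3.91 CPM in young, 6.41, 6.59 and 6.64 CPM in aged and 3.4, 1.92, 2.15 and 4.56 CPM in spermidine libraries. The aged libraries were close together and above all others, and the spermidine libraries were lowest, with spermidine 4 inside the young range. Arsb fell with spermidine to 0.46 of its aged level (log2 fold change -1.12, SE 0.27, edgeR adjusted p = 0.0382), while the value for age was 0.44 (SE 0.29, edgeR adjusted p = 0.291). The call for spermidine was lost without any 1 of the young libraries, aged replicate 2 or 3 or spermidine replicate 2 or 3 (-1.38 to -0.97 over the left-out fits). Arsb overlaps the gene models Gm26527 and Gm47210 on the opposite strand. Ids, the gene of iduronate sulfatase, gave 0.78 (SE 0.44, edgeR adjusted p = 0.226) for age, and Galns, the gene of a sulfatase of keratan sulfate, 0.23 (SE 0.26, edgeR adjusted p = 0.549).

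Tfe3 (Gene ID 209446) was the member that passed in both directions. It stood at 18.9, 23.2 and 21.7 CPM in young, 35.7, 34.0 and 37.5 CPM in aged and 27.3, 19.9, 20.3 and 25.7 CPM in spermidine libraries. The aged libraries lay above all others with little spread, and the spermidine libraries overlapped the young ones, with spermidine 1 and 4 above their range. Tfe3 rose 1.68-fold with age (log2 fold change 0.75, SE 0.16, edgeR adjusted p = 0.011) and fell with spermidine to 0.652 of the aged level (-0.62, SE 0.15, edgeR adjusted p = 0.0411). Both contrasts use the aged libraries, so the opposite signs are not separate evidence. Spermidine against young oocytes gave 0.13 (95% interval -0.17 to 0.43). The transcript has a GC content of 57.3%, and after length and GC correction neither call passed (0.40, edgeR adjusted p = 0.0827, and -0.36, edgeR adjusted p = 0.131). The call for age was also lost without young replicate 1 (0.63 to 0.82 over the left-out fits). That for spermidine was lost without any 1 of the young libraries, aged replicate 2 or 3 or spermidine replicate 2 or 3 (-0.71 to -0.56).

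Of the 3 V0 subunits, Atp6v0c (Gene ID 11984) passed in 1 comparison. It encodes the proteolipid of the ring that carries protons through the membrane. It stood at 276, 255 and 240 CPM in young, 317, 499 and 528 CPM in aged and 196, 178, 202 and 357 CPM in spermidine libraries. Aged libraries lay above young ones, and 3 of the 4 spermidine libraries lay below both, while spermidine 4 stood above aged 1. Spermidine oocytes were at 0.521 of the aged level (log2 fold change -0.94, SE 0.24, edgeR adjusted p = 0.0453), and the value for age was 0.80 (SE 0.26, edgeR adjusted p = 0.0506). The call for spermidine was kept only without aged replicate 1 and without spermidine replicate 4 among the 10 left-out fits (-1.22 to -0.81). With length and GC correction both passed (0.93, edgeR adjusted p = 0.0108, and -1.02, edgeR adjusted p = 0.0118). The pseudogenes Atp6v0c-ps1 and Atp6v0c-ps2 can share its reads, so its level is uncertain. In the authors' deposited table Atp6v0c has a q-value under 0.05 in both contrasts. Atp6v0a1, the gene of the large membrane subunit, gave 0.43 for age (SE 0.25, edgeR adjusted p = 0.227) and -0.79 for spermidine against aged oocytes (SE 0.23, edgeR adjusted p = 0.0654). Atp6v0d1, which links the ring to the central stalk, gave 0.18 and -0.14.

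The 6 V1 subunits did not pass in any of the 3 comparisons. Their medians were -0.04 for age, 0.12 for spermidine against aged and 0.10 for spermidine against young oocytes, beside 0.43, -0.79 and -0.14 for the 3 V0 subunits. Those 3 are a part of the V0 sector, and its other tested genes moved both ways. For age Atp6v0a2 and Atp6v0e2 gave 0.71 and 0.98, and Atp6v0a4, Atp6v0b, Atp6v0d2 and Atp6v0e gave -0.59, -0.23, -1.15 and -0.69. For spermidine against aged oocytes, in the same order, they gave -0.43, 0.32, 0.55, 0.03, 0.63 and 0.48. Atp6v1h encodes the regulatory subunit that links the 2 sectors and had the smallest p of the V1 genes. It stood at 89.7, 71.6 and 91.9 CPM in young, 94.4, 90.5 and 84.4 CPM in aged and 106, 115, 104 and 106 CPM in spermidine libraries. All spermidine libraries lay above all others, by a small margin. The values were 0.35 against young (SE 0.13, edgeR adjusted p = 0.136) and 0.26 against aged oocytes (SE 0.13, edgeR adjusted p = 0.219), and that against young passed with length and GC correction (0.44, edgeR adjusted p = 0.0319). Atp6v1a, the gene of the catalytic subunit, gave 0.38 for age (95% interval 0.04 to 0.71, edgeR adjusted p = 0.136). Atp6v1d, a subunit of the central stalk, gave -0.43 (95% interval -0.78 to -0.08, edgeR adjusted p = 0.11). Atp6v1b2, the other subunit of the catalytic head, gave 0.31, and the stator genes Atp6v1c1 and Atp6v1e1 gave -0.16 and -0.22. Atp6v1c1 was at 174, 176 and 176 CPM in the young libraries and lowest in aged 1 and spermidine 1, at 116 and 121 CPM. Those 2 libraries were also the lowest for Atp6v1d and aged 1 for Atp6v1e1, and they are the 2 with the most positive trend with length. The transcripts of Atp6v1c1 and Atp6v1e1, of 2071 and 1312 bases, are shorter than the median of 2975 for tested genes. That of Atp6v1d is longer, at 3667 bases. The part of length in these values was not tested.

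**Figure D5:**
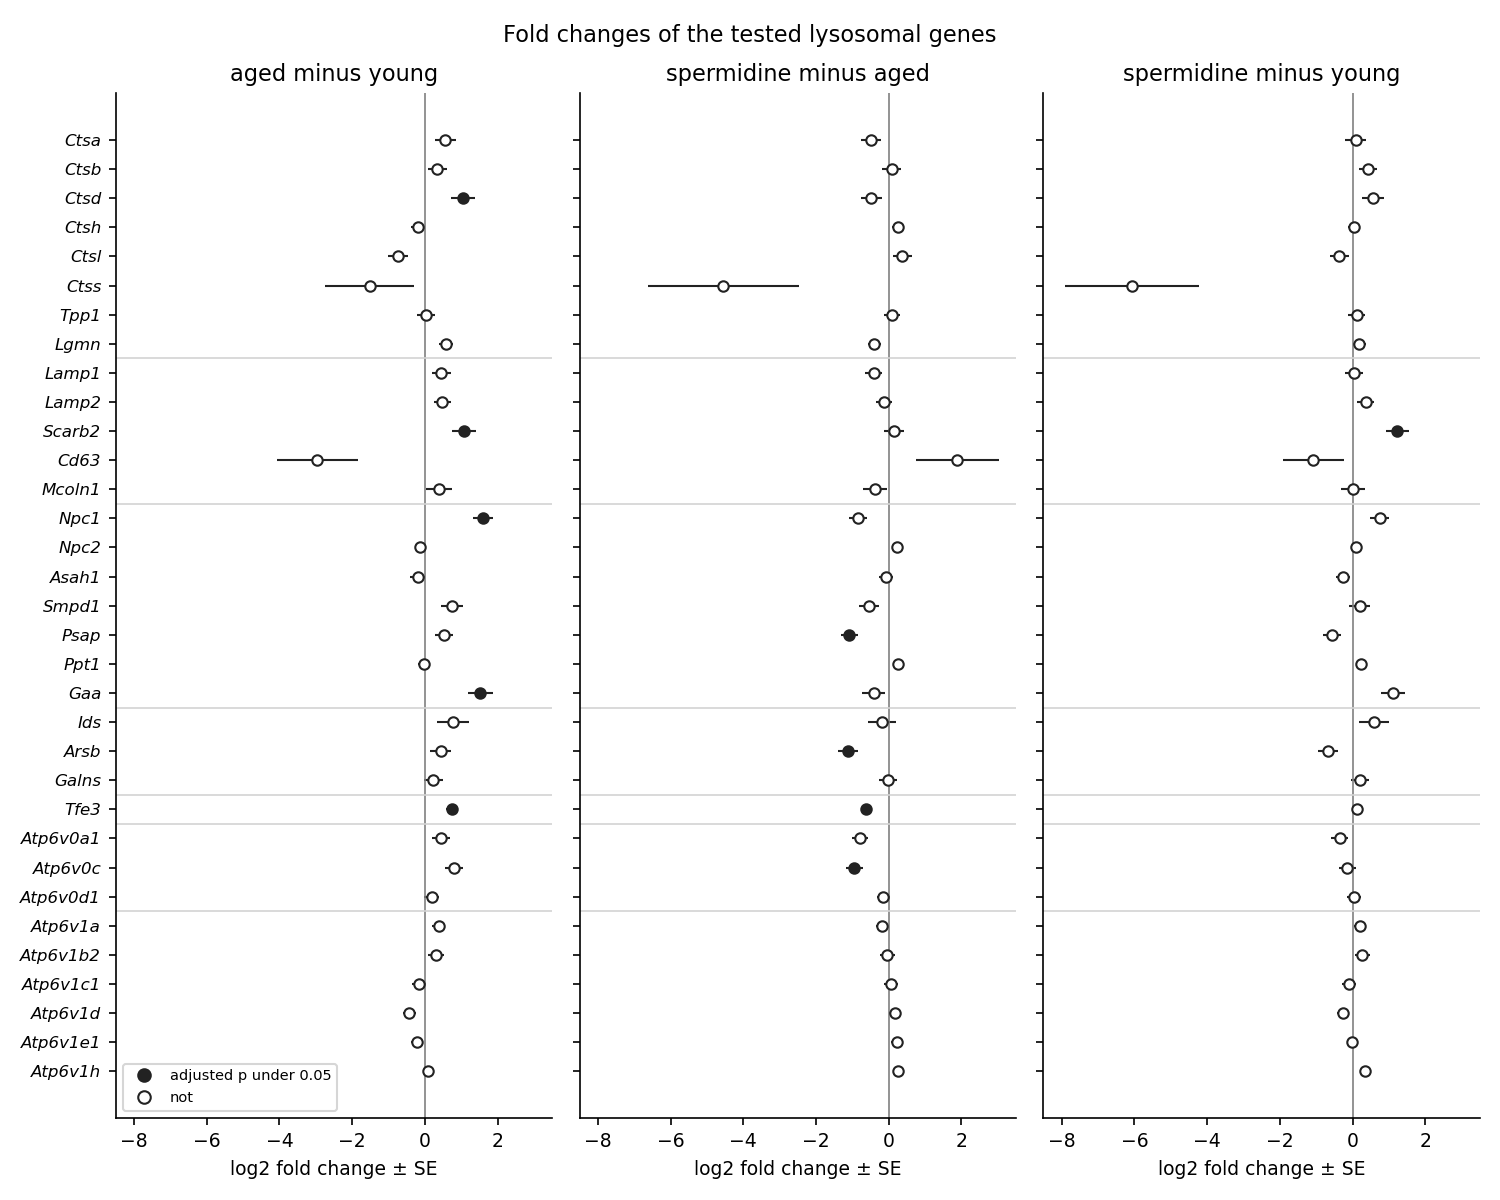
Log2 fold change ± SE of the 33 tested lysosomal genes, in classes parted by lines, in the 3 comparisons, with filled points for an adjusted p under 0.05. Filled points are above 0 in the comparison of aged with young oocytes (5 genes) and below 0 in that of spermidine with aged oocytes (4 genes), and Ctss and Cd63 have the widest errors.

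Genes of the same pathway that are not among the 40 were counted by list. Of all tested genes, 9.71% were called higher with age and 8.06% lower. With spermidine these shares were 2.42% and 2.44% against aged, and 3.44% and 1.92% against young oocytes. Of 19 other V-ATPase subunits and assembly factors 15 were tested, and with age 1 rose and 3 fell, with a median of -0.37. Atp6v0a2, another form of the large membrane subunit, rose (0.71, SE 0.18, edgeR adjusted p = 0.0194). The small subunits Atp6v0e (-0.69, SE 0.14, edgeR adjusted p = 0.00814) and Atp6v1f (-0.49, SE 0.14, edgeR adjusted p = 0.0353) and the assembly factor Tmem199 (-0.59, SE 0.16, edgeR adjusted p = 0.0292) fell. After length and GC correction these 3 were at -0.23, -0.14 and -0.27 and did not pass. The call of Atp6v0e was kept in all 10 left-out fits, and that of Atp6v0a2 was lost without young replicate 1 or 3 (0.60 to 0.77). Those of Tmem199 (-0.71 to -0.48) and Atp6v1f (-0.57 to -0.46) were each lost without any 1 of the young libraries or without aged replicate 3, and also without aged replicate 1 for Tmem199 and aged replicate 2 for Atp6v1f. With spermidine against aged oocytes 1 rose, Atp6v1f (0.52, SE 0.14, edgeR adjusted p = 0.048), at 75.7, 70.3 and 72.5 CPM in aged and 110, 122, 99.1 and 87.3 CPM in spermidine libraries, and with the correction it did not pass (0.30, edgeR adjusted p = 0.126). It was kept only without spermidine replicate 4 among the left-out fits (0.43 to 0.60). Against young oocytes 1 was higher, Atp6v0e2 (1.3, SE 0.31, edgeR adjusted p = 0.0291), which was lost without any 1 of the young libraries or spermidine replicate 1 or 3 (1.03 to 1.42).

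Of 36 further lysosomal enzymes and membrane proteins 24 were tested, and 4 rose and 0 fell with age. Among those that rose were the chloride transporter gene Clcn7 (1.18, SE 0.34) with its partner Ostm1 (1.07, SE 0.33), and the cystine exporter gene Ctns (0.88, SE 0.24), with edgeR adjusted p-values of 0.0343, 0.0419 and 0.0252. Ctns was also higher in spermidine than in young oocytes (1.01, SE 0.22, edgeR adjusted p = 0.0218), at 2.12, 2.48 and 2.40 CPM in young, 4.24, 5.31 and 3.34 CPM in aged and 4.03, 4.79, 6.03 and 3.99 CPM in spermidine libraries. Over the left-out fits the call of Ctns for age was lost without any 1 of the young libraries or aged replicate 2 (0.70 to 1.03) and that for spermidine without any 1 of the young libraries or spermidine replicate 2 or 3 (0.87 to 1.08). Clcn7 lost its call without young replicate 1 or 3, aged replicate 2 or 3 or spermidine replicate 2 (0.87 to 1.41). Ostm1 lost it without any 1 of the young libraries, aged replicate 1 or 2 or spermidine replicate 2 or 3 (0.88 to 1.24). With length and GC correction Clcn7 did not pass (0.90, edgeR adjusted p = 0.0841), nor did it with only the 2 groups in the fit. As with Scarb2, the aged and spermidine libraries of Ctns overlapped each other and lay above the young ones. The acid phosphatase gene Acp2 fell with spermidine against aged oocytes (-0.84, SE 0.21, edgeR adjusted p = 0.045), a call kept only without spermidine replicate 4 among the left-out fits (-0.95 to -0.74). Of 10 tested genes that sort enzymes to the lysosome, the adaptor gene Gga3 rose with age (0.91, SE 0.23, edgeR adjusted p = 0.0193) and 0 fell. Its call was lost without any 1 of the young libraries or aged replicate 1 (0.62 to 1.05), and with length and GC correction (0.64, edgeR adjusted p = 0.101).

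Of 16 tested genes listed for the control of TFEB and TFE3, with relatives of these factors, 1 rose and 2 fell with age. Those are 6.25% and 12.5% of them, against 9.71% and 8.06% of all tested genes. Ppp3ca, a catalytic subunit of calcineurin, the phosphatase that frees TFEB and TFE3 to enter the nucleus, rose (0.88, SE 0.26, edgeR adjusted p = 0.0337). Lamtor5, a subunit of the Ragulator complex on the lysosomal surface, fell (-0.54, SE 0.13, edgeR adjusted p = 0.0171). Tfec, a related factor, stood at 1.16 CPM ± 0.295 (SD, n = 3) in young libraries and fell to 0.361 CPM ± 0.0585 (SD, n = 3) in aged ones (-1.68, SE 0.33, edgeR adjusted p = 0.00671), and this call was kept in all 10 left-out fits. Total count scaling ended the calls of Ppp3ca and Lamtor5, and those of Atp6v0e and Atp6v1f above. Lamtor5 did not pass after length and GC correction or without young replicate 1 or 3 or aged replicate 2 or 3 (-0.64 to -0.50 over the left-out fits). Ppp3ca did not pass without any 1 of the young libraries, aged replicate 1 or 3 or spermidine replicate 2 (0.62 to 0.99). An unadjusted p under 0.05 was found in 10 of the 16 for age (34.7% of all genes). In the 2 comparisons with spermidine 0 of the 16 passed by edgeR, with 5 against aged (24.2% of all genes) and 4 against young oocytes (19.98% of all genes) at an unadjusted p under 0.05.

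Cystatins inhibit cysteine cathepsins. Of 7 listed 4 were tested, and all 4 values were above 0 in both comparisons with spermidine, with 1 gene passing in each. Of all 12315 tested genes, 5844 were above 0 against aged and 6733 against young oocytes, and 2.42% and 3.44% were called higher. By edgeR an unadjusted p under 0.05 was found in 3 of the 4 against aged oocytes (24.2% of all genes). Against young oocytes it was found in all 4 (19.98% of all genes). Cst3, the gene of cystatin C, stood at 91.2, 65.3 and 71.4 CPM in young, 55.1, 62.9 and 59.4 CPM in aged and 104, 117, 132 and 73.0 CPM in spermidine libraries, so that the aged and spermidine libraries did not overlap. It rose with spermidine against aged oocytes (0.85, SE 0.19, edgeR adjusted p = 0.0336), a call lost without young replicate 3, any 1 of the aged libraries or spermidine replicate 2 or 3 (0.73 to 1.00 over the left-out fits). Cstb, the gene of cystatin B, stood at 5.99, 5.53 and 4.18 CPM in young, 7.17, 6.14 and 8.51 CPM in aged and 14.1, 12.3, 11.6 and 8.86 CPM in spermidine libraries. It was higher in spermidine than in young oocytes (1.16, SE 0.21, edgeR adjusted p = 0.00676), a call lost only without young replicate 3 among the left-out fits (0.97 to 1.27). With age 0 of the 4 passed by edgeR, and 0 had an unadjusted p under 0.05 (34.7% of all genes).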

How the data were processed

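Oocyte RNA was sequenced in 10 mouse libraries, put into groups by title. Per the submitters' processing notes, which give no roles, the tools were RSEM 1.3.1, DESeq2 1.4.5 and Bowtie2 2.3.4.3, and the build was mm9. The authors deposited expected counts per gene and library (15.9% to 16.7% of a library's values were not whole), with log2 fold changes, p-values and q-values of their own for 2 contrasts, per the file headers. Here the counts were rounded, filtered by edgeR's filterByExpr, scaled by TMM and tested by edgeR 4.0.16 (quasi-likelihood, robust, 1 fit over all 10 libraries). CPM are counts over the TMM-scaled total. A mean ± SD is over libraries, and a 95% interval is the normal interval from the SE.

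The members and gene lists were chosen with earlier results of these data known, so their counts are descriptions. Values per library are given for members that passed in a comparison, and for the smallest p in a class with none. Other members are named for a class's range or for their library pattern, the last chosen after their values were seen. Of other lists, at most 4 genes that passed are named per comparison.

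The alternatives were a replicate block, length and GC correction (splines with 4 degrees of freedom), both of these together, RLE factors, total count scaling, DESeq2 1.42.0, dropping the filter on low counts, raising it to 10 CPM in 3 libraries, fitting only the pair of groups compared, no robust estimation, leaving out each library, and leaving out aged 1 with spermidine 1. Length and GC content came from GENCODE transcripts. The fit was checked on simulated data with 200 genes changed. For aged minus young, spermidine minus aged and spermidine minus young it recovered 51%, 57% and 55% of changes of log2 1. Of changes of log2 2 it recovered 95%, 100% and 97%. False calls were 4 of 150, 11 of 168 and 5 of 157. The simulated counts held no trends with length or GC content, and genes of the lowest levels were not changed. These figures therefore do not cover such trends or such genes. Per-transcript values were not analysed here. The values of 1 gene counted in a list are not reported here.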

Additional observations from a re-analysis of the deposited data

Results flagged for a closer look

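Dixon's test of a single value that stands apart was run on the spermidine libraries, the one group of 4, for each of the 33 tested lysosomal genes, and 2 were marked. Chance marks about 1 in 20. Atp6v0c stood at 357 CPM in spermidine 4 against 178 to 202 CPM in the other 3 spermidine libraries, a gap of 0.867 of the range, which is above the critical value for 4 libraries. Spermidine 4 is also the spermidine library with the most positive trend with GC content (0.232), and the transcript has a GC content of 56.0%. The part of that trend in this value was not tested. Ctss stood at 0.0301 CPM in spermidine 1 against 0 in the other 3, which is 1 count and below the floor of 3 counts.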

How the results depend on the processing

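As reported, 5, 4 and 1 lysosomal genes passed for aged minus young, spermidine minus aged and spermidine minus young. For aged minus young the count was 9 with DESeq2 (7 higher, and Ctsl and Cd63 lower), 8 with the replicate block and 8 without aged 1 and spermidine 1. The share of all genes called was 23.4%, 18.8% and 20.8% in these fits, against 17.8% as reported. For spermidine minus aged it was 0 with total count scaling, 0 with only the 2 groups compared, 2 without a filter and 2 with the stricter filter, which tests 20 of the 40 genes. The share of all genes was 2.1%, 1.02%, 2.28% and 7.38%, against 4.86% as reported. For spermidine minus young it was 3 with total count scaling, 0 with the stricter filter, 2 with DESeq2, 3 with the replicate block, 5 with the block and length and GC correction together and 3 with that correction alone. The share of all genes was 5.94%, 4.72%, 8.92%, 5.12%, 7.93% and 7.52%, against 5.36%. Scarb2, the gene reported for this comparison, did not pass with the block (1.06, edgeR adjusted p = 0.0966) or with the block and correction. The 3 genes called with the block were Arsb, Ctss and Npc1. With each library left out the counts ran from 1 to 8, 0 to 6 and 0 to 4. The lowest counts were 1 without young replicate 1 for aged minus young, where 6.59% of all genes were called, and 0 without aged replicate 2 or spermidine replicate 2 or 3 for spermidine minus aged. With total count scaling the median over all genes was 0.24 in place of 0.10 for aged minus young and 0.23 in place of 0.04 for spermidine minus young.

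The genes called are not always the same ones: of the 5 genes higher with age, 5 were kept with DESeq2 and 3 with length and GC correction, which adds Atp6v0c and Lgmn. Values of sign other than the reported one were those of Scarb2 for spermidine minus aged, -0.016 with the replicate block, -0.027 with the block and the correction and -0.028 to 0.337 with a library left out (lowest without spermidine replicate 4), of Atp6v0c for spermidine minus young, 0.028 with total count scaling, and of Atp6v1h for aged minus young, -0.015 to 0.134 with a library left out (lowest without young replicate 2). Their adjusted p in those fits lay between 0.949 and 0.98 (edgeR). The causes of these changes were not tested.

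Libraries of the same number did not deviate together throughout: of 9 same-numbered pairs 3 correlated above 0.1. The highest of the 9 was aged 1 with spermidine 1, at 0.377. The labels do not say whether the numbers pair the libraries. These correlations cannot decide it, because trends with length and GC content enter them too. With the replicate block the counts were 8, 6 and 3. The block leaves spermidine 4 alone in its level. Genes at low CPM, such as Scarb2 and Psap, rest on far fewer counts in a library than Atp6v0c or Lamp1. The 7 untested genes had too few counts to be tested.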

Other observations

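Beyond the genes above, 408 genes of the deposited table carry a Gene Ontology term for the lysosome, and 296 of them were tested. This list was made after the data were seen. With age 37 rose and 20 fell (12.5% and 6.76% of them, against 9.71% and 8.06% of all tested genes), with a median log2 fold change of 0.10, the same as that of all genes at 2 decimals. With spermidine against aged oocytes 10 rose and 6 fell (3.38% and 2.03%, against 2.42% and 2.44% of all tested genes), with a median of -0.01. Against young oocytes 6 were higher and 3 lower (2.03% and 1.01%, against 3.44% and 1.92% of all tested genes), with a median of 0.03. The genes that rose with age include Manba and Glb1, which encode lysosomal glycosidases, and Mtor and Rptor, which encode parts of the kinase complex that keeps TFEB and TFE3 in the cytosol. Cts3 and Ctsm, cathepsin genes of the rodent placental cluster, and Ifi30, a lysosomal thiol reductase gene, were among those that rose with spermidine against aged oocytes. Cts3 and Ctsm were also among the 20 that fell with age, and they did not pass in spermidine against young oocytes. These genes are named after their values were seen.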
